A study of Mus musculus with 6 samples.

Results

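Of the 182956 regions that resulted from merging the 4 H3K27ac peak lists of low- and high-pigment B16 cells, 6625 (3.62%) held a peak of both high-pigment (HP) replicates and of exactly 1 low-pigment (LP) replicate. These HP regions found in one LP replicate, called members in what follows, stand by their calls between regions called in all 4 lists (12084) and regions called in both HP lists and neither LP list (7204). The LP peak was that of LP replicate 2 in 5377 of them (81.2%) and that of LP replicate 1 in 1248 (18.8%). They made up 25.6% of the 25913 regions called in both HP lists. The pattern of calls chose these regions, and a call rests on pileup and q-value. The pileups, widths, enrichments and q-value ranks below, and the HP to LP differences in them, are therefore a description. No test was made of them.

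B16 F10 is a mouse melanoma line that makes melanin when it is seeded sparsely. All cells of the study were of this 1 line, seeded at 100 cells per cm2 and taken on day 5, with no genotype or drug that differed between groups. LP and HP cells came from the same culture and were separated by side scatter in a flow cytometer, a measure of light deflected by granular content, so the groups differ by a sort and not by a treatment. Each population had 2 replicates, named here LP1, LP2, HP1 and HP2, and each replicate set had its own IgG control from unsorted cells. The labels do not say that the replicates came from separate cultures, so their spread may be technical. The labels call the cells melanocytes, and 8 of 10 melanocyte marker genes (Mitf, Sox10, Pmel, Mlana, Tyr, Tyrp1, Dct and Pax3) had a peak within 3 kb of a transcription start site (TSS) in all 4 lists. Mc1r had one in LP2, HP1 and HP2, and Kit in LP2 alone. Of all protein-coding genes, 45.2% had a region called in all 4 lists within 3 kb of a TSS. That share asks for a single merged region, a stricter count than a peak of each list in the window. Of the keratinocyte, fibroblast, endothelial and leukocyte markers, 5 genes each, 0 had a peak in all 4 lists. Krt5, Krt1, Krt10, Cdh5, Ptprc, Cd3e, Itgam and Col1a2 had none in any list, while Col1a1 and Pdgfra, of fibroblasts, had one in 3 lists each.

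H3K27ac, acetylation of lysine 27 on histone H3, marks active promoters and active enhancers, the distal elements that raise transcription of a gene. In melanocytes the transcription factor MITF binds E-box sequences at the genes of melanin synthesis and melanosome transport, together with SOX10, PAX3 and, downstream of Wnt signalling, LEF1. Pigment genes are known to carry H3K27ac at their promoters and in their introns in pigment cells.

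The sequences below are shown because they are regions of this kind at pigment genes whose summit in HP2 lay within 100 bp of a motif word of MITF or LEF1. Each is 200 bp of the mm10 reference, plus strand, centred on the HP2 summit. Capitals mark the word, and words were searched on both strands: TCACGTG or, as the other form, TCATGTG for MITF, and CTTTGAT for LEF1. Where the word lies on the minus strand, the capitals show its reverse complement, which reads CACGTGA or, for the other form, CACATGA for MITF and ATCAAAG for LEF1. The first 4 hold a MITF word and the last 2 a LEF1 word.
Dct, chr14:118057364-118057563: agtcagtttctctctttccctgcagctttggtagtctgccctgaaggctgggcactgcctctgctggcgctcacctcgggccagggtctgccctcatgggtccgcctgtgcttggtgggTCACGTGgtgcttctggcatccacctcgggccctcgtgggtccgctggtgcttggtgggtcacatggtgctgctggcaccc
Mitf, chr6:97978887-97979086: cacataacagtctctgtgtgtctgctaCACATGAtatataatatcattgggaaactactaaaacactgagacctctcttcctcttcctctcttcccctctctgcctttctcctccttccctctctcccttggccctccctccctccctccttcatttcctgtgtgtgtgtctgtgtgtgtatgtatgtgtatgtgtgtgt
Mitf, chr6:97984675-97984874: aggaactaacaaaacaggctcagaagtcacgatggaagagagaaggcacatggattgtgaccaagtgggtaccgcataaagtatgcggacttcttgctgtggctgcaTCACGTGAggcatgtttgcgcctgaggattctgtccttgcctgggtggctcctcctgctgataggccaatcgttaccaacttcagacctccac
Tyrp1, chr4:80841882-80842081: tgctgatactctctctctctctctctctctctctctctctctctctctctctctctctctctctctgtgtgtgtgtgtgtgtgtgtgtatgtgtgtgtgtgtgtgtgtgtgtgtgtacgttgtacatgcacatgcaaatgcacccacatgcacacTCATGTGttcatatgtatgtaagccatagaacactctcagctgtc
Mitf, chr6:97883855-97884054: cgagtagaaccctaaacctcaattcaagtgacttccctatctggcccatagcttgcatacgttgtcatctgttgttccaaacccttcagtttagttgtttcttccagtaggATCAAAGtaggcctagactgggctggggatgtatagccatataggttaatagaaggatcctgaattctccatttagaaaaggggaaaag
Oca2, chr7:56236596-56236795: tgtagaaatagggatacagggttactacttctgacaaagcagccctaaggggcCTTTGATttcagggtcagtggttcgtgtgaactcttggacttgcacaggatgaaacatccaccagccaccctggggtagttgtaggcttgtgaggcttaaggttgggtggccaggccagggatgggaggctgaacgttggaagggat
The second Mitf sequence holds the word on both strands, overlapping as the palindrome TCACGTGA. A MITF word stood in 280 of the 6616 members on chromosomes 1 to 19, X and Y (4.23%), against 4.54% of all merged regions in windows of the same length. A LEF1 word stood in 111 members (1.68%), against 3.01% of all merged regions. A match is a run of letters and not a measured binding site, and neither share of the members exceeded that of all merged regions.

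The 4 libraries had 11467942 (LP1), 15353176 (LP2), 11483830 (HP1) and 14254904 (HP2) fragments and 57942 to 71529 peaks. The pileup at a summit is the number of fragments that cover it, and it is given here as fragments per 1000000 fragments of the library (FPM). A median peak rested on 7 to 12 fragments. The lists give values at called peaks only. A missing LP peak therefore says that the signal did not pass the q-value of 0.05 of the peak caller, and not that H3K27ac was lacking.

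Members with a peak in LP2 were 4.31 times as many as members with a peak in LP1. LP2 had 1.34 times the fragments of LP1 and 1.15 times the peaks, and its mean fragment was 217 bp against 167 bp. The part of these differences in the uneven split was not tested. The mirror pattern, both LP lists and 1 HP list, held 311 regions, 73 with a peak in HP1 and 238 with a peak in HP2. The regions described here thus outnumbered their mirror pattern by 21.3 to 1. The imbalance was not particular to them: 7204 regions were called in both HP lists alone and 456 in both LP lists alone. The plot of call patterns shows these counts beside all other patterns shared by at least 2 lists.

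**Figure D1:**
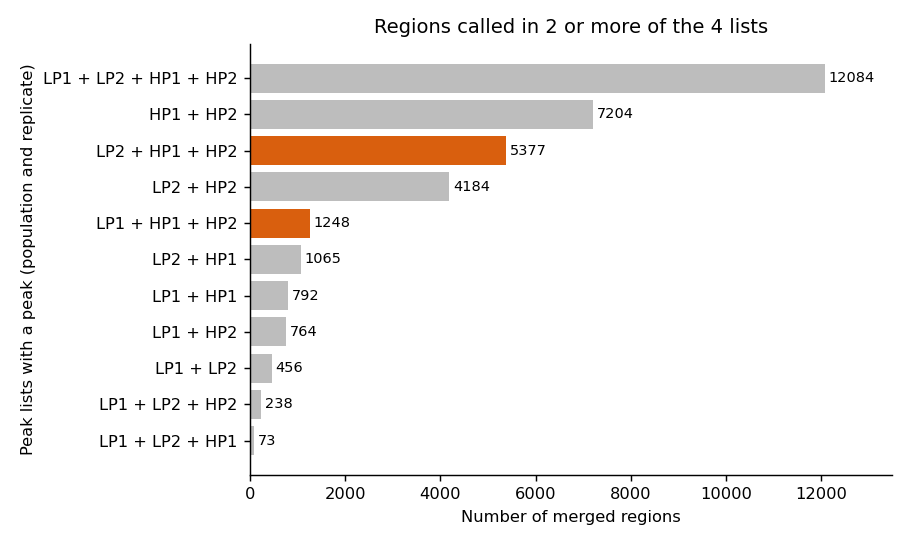
Number of merged regions (x axis) for each combination of at least 2 of the 4 peak lists (y axis), with the 2 patterns described here in orange. The pattern with LP2 holds 5377 regions and the pattern with LP1 1248, against 311 regions in both mirror patterns together.

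In the members with an LP1 peak, the median summit pileup was 0.785 FPM in LP1, 1.13 in HP1 and 1.54 in HP2. These medians stand for 9, 13 and 22 fragments. In the members with an LP2 peak it was 0.912 in LP2, 1.31 in HP1 and 1.68 in HP2, or 14, 15 and 24 fragments. Both HP medians lay above the LP median in both kinds of member, and HP2 lay above HP1. Regions called in all 4 lists were taller in every library, with medians of 2.44 and 2.61 in LP1 and LP2 and 3.92 and 6.59 in HP1 and HP2. Regions called in HP alone had medians of 0.958 in HP1 and 1.05 in HP2. The members therefore stood between the other groups in both HP libraries, as the plot of summit pileup by library shows.

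**Figure D2:**
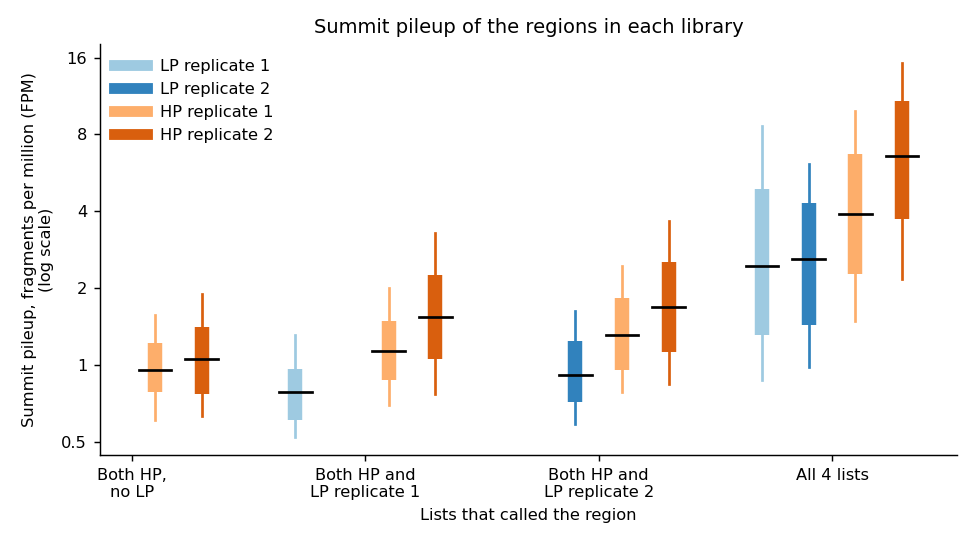
Summit pileup in FPM (y axis, log scale) for regions grouped by the lists that called them (x axis), with 1 bar per library. Black lines are medians, thick bars the 25th to 75th percentile and thin lines the 10th to 90th percentile over regions. The members, in the 2 middle groups, have HP medians of 1.13 to 1.68, below the 3.92 and 6.59 of regions called in all 4 lists.

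Within each list the members ranked above the middle, which follows in part from the rule, since the q-value decides each call. Each region was ranked by its highest −log10 q-value among all single peaks of the list. The members stood at a median percentile of 62.9 in LP1 and 67.4 in LP2, and of 68.8 to 76.4 in the HP lists. Regions called in all 4 lists stood at 89.1 to 91.5, and regions called in HP alone at 57.9 and 62.1. Depth was thin, most of all in LP1. In LP1 853 members (68.3%) had at most 10 fragments at the summit, and in LP2 1050 members (19.5%). In HP1 this held for 365 of the members with LP1 (29.2%) and 1068 of those with LP2 (19.9%). The counts in HP2 were 103 (8.25%) and 347 (6.45%). At least 10 fragments in all 3 libraries were found for 4519 members (68.2%).

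Some regions lay close to the border of the rule on either side. The weakest LP peaks had a −log10 q-value of 1.30, and the LP peak had a q-value above 0.01 in 148 members with LP1 (11.9%) and in 276 with LP2 (5.13%). At Ankrd35 the scaled pileup was 0.436 in LP1, 0.697 in HP1 and 0.421 in HP2, and the lone LP peak rested on 5 fragments. At Abca12 it was 0.521 in LP2, 1.13 in HP1 and 2.17 in HP2. Outside the rule, 203 regions called in HP alone (2.82%) had an LP peak within 100 bp, and 2617 (36.3%) within 1 kb. At Rpl14 an LP peak touched the HP region with a gap of 0 bp, and the pileup was 1.83 in HP1 and 1.75 in HP2. At Stard8 the gap was also 0 bp, with 1.39 and 0.982. The median overlap of the LP peak with an HP peak was 333 bp, and 32 members had an overlap of at most 20 bp.

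In the members with an LP1 peak, the log2 ratio of mean HP to LP1 scaled pileup had a median of 0.82, from 0.53 for HP1 and 0.98 for HP2. With an LP2 peak the median was 0.70, from 0.48 for HP1 and 0.84 for HP2. Each member has 1 LP value only, so it has no spread between LP replicates. Regions called in all 4 lists had medians of 0.96 against LP1 and 1.03 against LP2, so the HP to LP ratio of the members was the smaller. When each library was centred on its median over the regions called in all 4 lists, the median of the members turned negative, at −0.25 against LP1 and −0.26 against LP2. The regions called in all 4 lists themselves then had −0.13 and 0.03. Scaled to total fragments the members were thus higher in HP, and relative to the regions called in all 4 lists they were lower.

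Both HP libraries were above the LP library in 915 of the 1248 members with LP1 (73.3%), against 80.8% of the 13332 regions called in LP1 and both HP lists. They were above in 3978 of the 5377 members with LP2 (74.0%), against 84.2% of the 17461 regions called in LP2 and both HP lists. Both HP libraries were below in 81 members with LP1 (6.49%; 2.03% of the same regions) and in 304 with LP2 (5.65%; 2.2%). The rule used this contrast, and the members are among the regions of these shares.

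The HP to LP difference in width was larger against LP1 than against LP2. With an LP1 peak the median covered width was 254 bp in LP1, 516.5 bp in HP1 and 696 bp in HP2. With an LP2 peak it was 443 bp in LP2, 535 bp in HP1 and 780 bp in HP2. The median log2 width ratio of mean HP to LP was 1.14 against LP1 and 0.49 against LP2. Regions called in all 4 lists had 0.94 and 0.40, so the narrower peaks of LP1 were seen there too. The peak caller's minimum width equals the fragment length, 167 bp in LP1 and 217 bp in LP2, and the narrowest LP peaks of the members had these widths. Both HP libraries were wider in 970 members with LP1 (77.7%; 88.6% of the regions called in LP1 and both HP lists) and in 2777 with LP2 (51.6%; 60.6%). Both were narrower in 72 (5.77%; 1.38%) and 760 (14.1%; 9.12%).

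**Figure D3:**
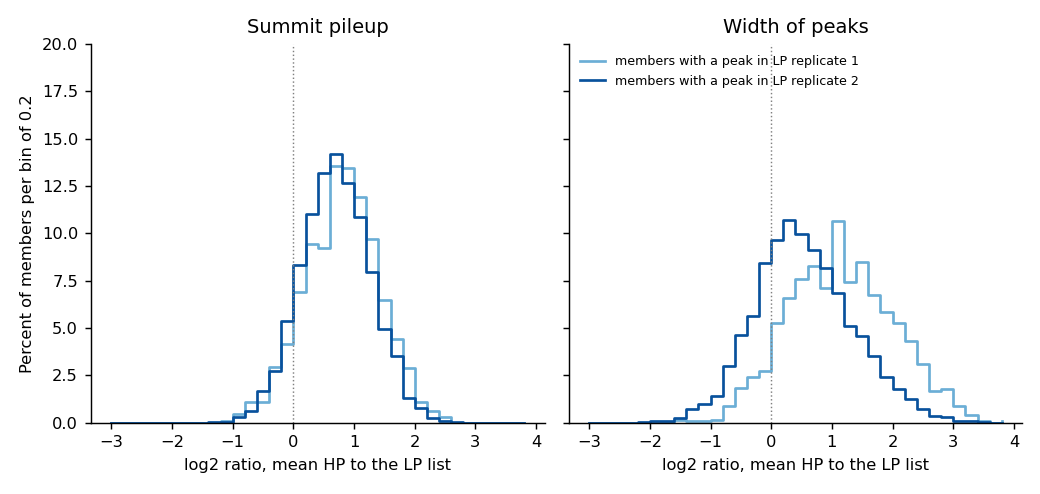
Share of members (y axis, percent per bin of 0.2) by the log2 ratio of the mean of both HP libraries to the LP library with the peak (x axis), for summit pileup in FPM (left) and covered width in bp (right). The pileup curves of both kinds of member lie close together, with medians of 0.82 and 0.70, while the width curves stand apart, with medians of 1.14 and 0.49.

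The positions of the summits varied more between libraries in the members than in regions called in all 4 lists. The members also had fewer fragments at the summit, with medians of 9 in LP1 and 14 in LP2, against 28 and 40. The part of this in the distances was not tested. The median distance from the LP1 summit was 158 bp to HP1 and 143 bp to HP2, and from the LP2 summit 139 bp and 114 bp. Between HP1 and HP2 it was 115.5 bp and 108 bp. In regions called in all 4 lists the same distances were 57 to 71 bp. In 5054 members (76.3%) each of the 3 lists had a single peak.

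The LP list without a peak in the member had its nearest one at a median of 3439 bp for members with LP1 and 6998 bp for members with LP2. Of the members with LP1, 28.4% had an LP2 peak within 1 kb, and of those with LP2, 14.1% had an LP1 peak within 1 kb. For regions called in HP alone the shares were 29.0% for LP2 and 17.6% for LP1, and the median distances 2948 bp and 6058 bp. A region called in all 4 lists lay within 1 kb of 805 members (12.2%) and within 5 kb of 1744 (26.3%). The shares were 13.8% and 27.7% for regions called in HP alone, and 4.02% and 11.6% for regions outside both groups, the mirror pattern and those called in all 4 lists.

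Fewer members than regions called in all 4 lists were promoters. The promoter, within 3 kb of the TSS of any annotated transcript, took 2956 members (44.6%, 95% Wilson interval 43.4 to 45.8), and the interval covers counting error only. The share was 39.6% with LP1 (36.9 to 42.3) and 45.8% with LP2 (44.5 to 47.1). It was 83.3% for regions called in all 4 lists, 34.4% for regions called in HP alone, 47.9% for the mirror pattern and 27.8% for all merged regions. First introns held 17.5% of the members, other introns 13.2%, exons 5.65% and distal intergenic sequence 18.8%. First introns held 4.76% of regions called in all 4 lists and 19% of those called in HP alone. These shares are of all regions of a group, so they move with the promoter share.

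Of the 1895 members with a summit within 3 kb of a protein-coding TSS, 1275 (67.3%) lay on its downstream side. This share was 80.6% for regions called in all 4 lists, 54.5% for those called in HP alone and 64.4% for all merged regions. A region called in all 4 lists stood within 1 kb of 505 promoter members (17.1%). On the X chromosome the members were 20.9% of the regions called in both HP lists, against 25.6% over all chromosomes.

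The ratio differed little with position. At promoters the median log2 pileup ratio was 0.87 with LP1 and 0.73 with LP2, and elsewhere it was 0.79 and 0.67. Promoter members with LP2 had medians of 1.04 in LP2, 1.48 in HP1 and 1.96 in HP2, in FPM. Members elsewhere had 0.912, 1.22 and 1.47. Regions called in all 4 lists and away from promoters had 1.17 in LP2, 1.83 in HP1 and 2.88 in HP2, so away from promoters the gap in height to the members was smaller than over all positions.

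In base composition the members stood between the regions called in HP alone and those called in all 4 lists. The median GC content of 200 bp around the highest summit was 55.5% in the members, 52.5% with LP1 and 56.0% with LP2. It was 67.5% in regions called in all 4 lists, 51.5% in those called in HP alone and 48.0% in all merged regions. At promoters the medians were 58.0% in the members, 69.5% in regions called in all 4 lists and 53.0% in HP alone, and elsewhere 53.5%, 55.5% and 51.5%. A CpG ratio (observed over expected) of at least 0.6, the usual mark of a CpG island, was found in 17.9% of the members, 70.6% of the regions called in all 4 lists and 6.21% of those in HP alone. Repeats covered over 50% of the window in 10.8% of the members, 2.88% of the regions in all 4 lists and 15.4% of those in HP alone.

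**Figure D4:**
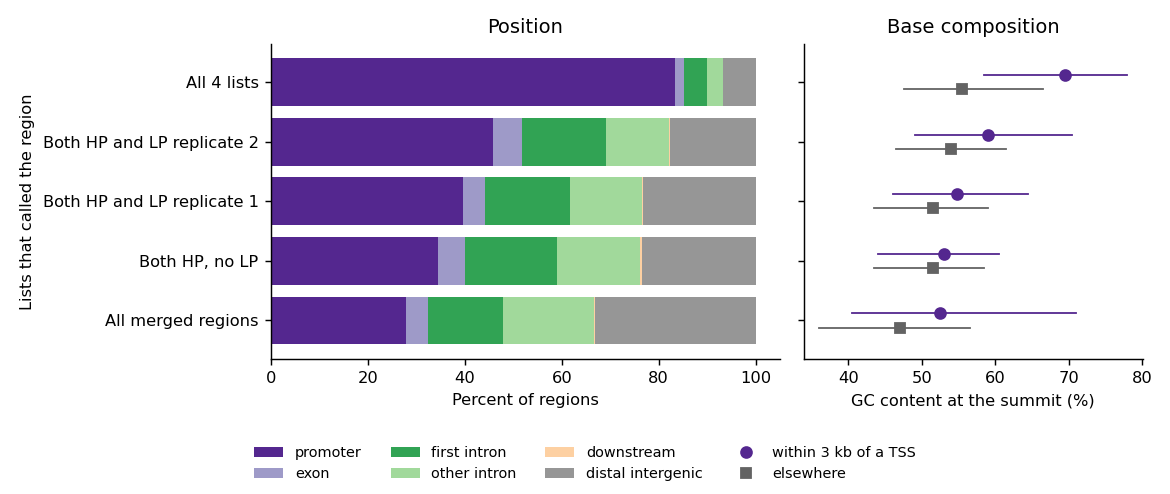
Left, percent of regions (x axis) in each position class for regions grouped by the lists that called them (y axis). Right, GC content in percent of the 200 bp around the summit (x axis) at promoters and elsewhere, with the median as a point and the 10th to 90th percentile as a line. Members with LP1 and with LP2 have promoter shares of 39.6% and 45.8%, between the 34.4% of regions in HP alone and the 83.3% of regions in all 4 lists.

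The words of other factors were also counted in the same windows. The SP word is rich in G and C and the SOX word in A and T. The SP word, GGGCGG or its reverse complement CCGCCC, stood in 15.3% of the members, 44.0% of regions called in all 4 lists, 8.22% of those in HP alone and 7.52% of all merged regions. The SOX word, ACAAAG or its reverse complement CTTTGT, stood in 14.3%, 8.16%, 17.2% and 16.1%. The AP-1 word, TGAGTCA on either strand, stood in 4.04%, 2.04%, 4.63% and 3.54%, and the NFY word, CCAAT on either strand, in 15.8%, 9.51%, 17.3% and 22.6%. Away from promoters the MITF word stood in 5.11% of the members, 4.81% of regions in all 4 lists, 4.78% of those in HP alone and 4.82% of all merged regions. The shares away from promoters were close to each other.

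At pigmentation genes, 13 of 20 (65.0%) had a member in the gene body or the 3 kb on either side. The share was 17.2% of all 22028 protein-coding genes, and their median length was 17.3 kb against 37.8 kb for the pigmentation list. The 13 genes were Dct, Gnaq, Gpnmb, Mc1r, Mitf, Mlana, Myo5a, Oca2, Pmel, Rab38, Slc45a2, Trpm1 and Tyrp1. They held 31 members, 24 with LP2 and 7 with LP1, of which 12 were promoters. Within 3 kb of a TSS of the gene 7 of 20 genes (35.0%) had a member, against 9.37% of all genes. In the same windows of gene body and flanks, 15 of the 20 genes (75%) had a region called in all 4 lists and 13 (65.0%) one called in HP alone, against 48.8% and 15.9% of all protein-coding genes. In 25 of the 31 members (80.6%) both HP libraries were above the LP library, in 0 both were below, and the median log2 ratio was 0.71, against 73.9% and 0.71 for all members.

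Mc1r, the melanocortin receptor that starts cAMP signalling towards MITF, had its promoter in the member chr8:123404355-123412025, with the summit 268 bp from the TSS. The summit pileup was 0.847 in LP2, 1.65 in HP1 and 2.31 in HP2, in FPM. The peaks covered 578 bp in LP2, 3784 bp in HP1 and 7671 bp in HP2. Both HP widths were the largest of all members, and the log2 width ratio of 3.31 ranked 8 of 6625. The log2 pileup ratio of 1.23 ranked 1247. The member extends over the neighbouring Tubb3 and the readthrough gene Gm20388, so it is not of Mc1r alone, and no region at Mc1r was called in all 4 lists.

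Myo5a encodes the motor protein that carries melanosomes along actin. Its member, chr9:75195543-75197766, lay 11288 bp from the nearest protein-coding TSS and within 3 kb of the start of another annotated transcript. The summit pileup was 0.716 in LP2, 2.44 in HP1 and 2.39 in HP2, and the widths were 235, 1432 and 2145 bp. The HP libraries were close to each other and both far above LP2. Its log2 pileup ratio of 1.75 was the highest at a pigmentation gene and ranked 245 among all members.

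Slc45a2 encodes a melanosomal transporter that is mutated in albinism. Its promoter member, chr15:11000093-11003214, with the summit 287 bp from the TSS, had 1.24 in LP2, 2.79 in HP1 and 3.65 in HP2, and widths of 499, 2046 and 3062 bp. The log2 pileup ratio was 1.38. Trpm1, a cation channel of melanocytes, had a promoter member 109 bp from an internal TSS with 1.04 in LP2, 1.31 in HP1 and 2.95 in HP2, so that HP1 was close to LP2 and HP2 was apart. A second member, in the first intron of Trpm1, had 1.17, 1.22 and 1.12 and a log2 ratio of −0.00. Oca2, an ion transport protein of the melanosome, had a member upstream of its TSS with 0.651 in LP2, 0.784 in HP1 and 1.12 in HP2, whose sequence with the LEF1 word is given above. Slc45a2, Trpm1, Oca2 and Mc1r had 0 regions called in all 4 lists.

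Mitf held 8 members over its body, 6 with LP2 and 2 with LP1, beside 9 regions called in all 4 lists and 4 called in HP alone. At the member chr6:97991495-97992349, with its summit 48 bp from an internal TSS of Mitf, the pileup was 0.610 in LP1, 1.22 in HP1 and 2.67 in HP2. The widths were 174, 576 and 855 bp, the LP1 peak rested on 7 fragments, and the log2 ratio of 1.67 was the highest of the 8. The neighbouring member chr6:97992913-97994605 had 1.69 in LP2, 2.09 in HP1 and 3.44 in HP2. It was the tallest of the 8 in LP and in HP2. The missing LP peak was close in both cases, at 620 bp and 885 bp.

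The 3 Mitf members whose sequences are given above lay in the first intron. The member with the CACATGA word had 0.651 in LP2, 0.871 in HP1 and 0.912 in HP2, and 77% of its summit window was repeat. The member with the palindrome TCACGTGA had 0.847, 0.958 and 1.05, and a log2 ratio of 0.25, the lowest of the 8. The member with the LEF1 word had 0.698 in LP1, 0.871 in HP1 and 1.26 in HP2. All 3 LP peaks rested on 8 to 13 fragments, and both HP values exceeded the LP value in each.

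Dct, the dopachrome tautomerase of melanin synthesis, had 3 members. The upstream one, which holds the first sequence above, had 1.63 in LP2, 1.57 in HP1 and 2.67 in HP2, so HP1 lay just below LP2. The pair in introns rested on 5 and 6 fragments in LP and had log2 ratios of 0.94 and 1.13. Tyrp1, the related melanosomal enzyme, had 0.872 in LP1, 0.784 in HP1 and 1.12 in HP2, a log2 ratio of 0.13, and 88.5% of its summit window was repeat.

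Gnaq, the Gq alpha subunit that acts in melanocyte signalling, held 5 members, all in introns. The one at chr19:16169789-16170739 had 0.586 in LP2, 1.31 in HP1 and 1.61 in HP2 and a log2 ratio of 1.32. That at chr19:16365919-16366507 had 0.610 in LP1, 1.48 in HP1 and 1.61 in HP2, a log2 ratio of 1.34, and an LP2 peak 706 bp away. In another Gnaq member LP1 and HP1 had 5 fragments each and HP2 had 20. The Gnaq LP peaks rested on 5 to 9 fragments.

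Gpnmb, a melanosomal glycoprotein and MITF target, held 4 members, all with LP2, with log2 ratios of 0.02 to 0.75. Its tallest lay 6472 bp from the nearest protein-coding TSS and within 3 kb of the start of another annotated transcript. It had 1.30 in LP2, 1.65 in HP1 and 2.67 in HP2. In 3 of the 4 the mean HP width was below the LP2 width. Rab38, which directs enzymes to melanosomes, held 2 members with log2 ratios of 0.65, in a summit window of 72% repeat, and 0.57. Pmel, whose protein forms the fibrils of the melanosome, had 0.716 in LP2, 1.39 in HP1 and 0.912 in HP2. Mlana, another melanosomal protein, had 0.651, 0.784 and 1.54 in a summit window of 76.5% repeat. The plot of members at pigmentation genes gives the values of all 31.

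**Figure D5:**
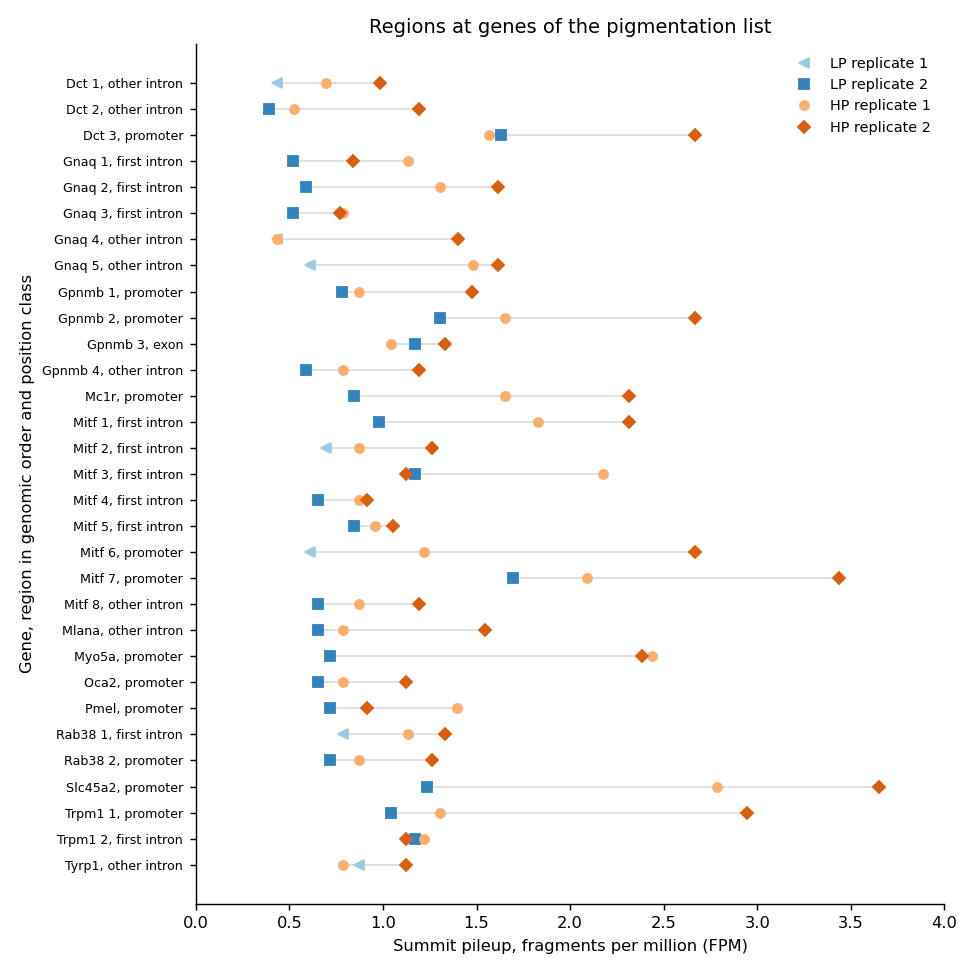
Summit pileup in FPM (x axis) of each of the 31 members at genes of the pigmentation list (y axis, numbered in genomic order within a gene, with the position class), 1 symbol per library. In 25 of the 31 both HP symbols lie to the right of the LP symbol, and LP values lie between 0.391 and 1.69.

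Among 15 melanocyte transcription factors and their partners, 7 (46.7%) had a member: Mitf, Pax3, Sox10, Sox9, Sox5, Tfeb and Tfe3. The share was 17.2% of all protein-coding genes, and their median length was 17.3 kb against 55.4 kb for this list. In the same windows 7 of the 15 genes (46.7%) had a region called in HP alone, against 15.9% of all protein-coding genes. A region called in all 4 lists stood at 12 of the 15 (80%), against 48.8%. Outside Mitf the members at these factors were 16 regions. Over the whole list of 24, both HP libraries were above LP in 18 (75%) and below in 2, with a median log2 ratio of 0.62. Of all 6625 members, both were above in 73.9% and below in 385, and the median was 0.71. Sox9, a neural crest factor, had a promoter member with 1.63 in LP2, 2.53 in HP1 and 2.95 in HP2, and no region of Sox9 was called in all 4 lists. Sox10, the neural crest factor that activates Mitf, had an exonic member with 1.76, 1.65 and 2.17, in which HP1 was below LP2.

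Sox5, a relative of Sox10 without an activation domain of its own, held 8 members and 1 region called in all 4 lists. A promoter member, chr6:144209000-144210808, had 1.56 in LP2, 2.53 in HP1 and 3.79 in HP2, a log2 ratio of 1.01. The highest ratio, 1.54, was at another promoter member, chr6:144720772-144721801, with 0.977, 2.18 and 3.51, and an LP1 peak lay only 13 bp away. Its nearest protein-coding TSS was that of Bcat1, 311443 bp away, so it was a promoter by another annotated transcript. A further promoter member of this kind lay at the far upstream end of Sox5, 251201 bp from the Bcat1 TSS. It had 2.48 in LP2, 2.70 in HP1 and 1.82 in HP2. There the HP replicates lay on either side of LP2, with a log2 ratio of −0.13.

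Pax3, which acts with SOX10 at Mitf, had 3 intronic members and 9 regions called in all 4 lists. The one at chr1:78176726-78177504 had 1.11 in LP2, 0.522 in HP1 and 0.772 in HP2, a log2 ratio of −0.78 and the lowest of both lists. Tfeb and Tfe3 are relatives of MITF that act on lysosomal genes. At Tfeb 1 member had 1.24 in LP2, 1.65 in HP1 and 1.75 in HP2, and its neighbour had 1.95, 1.22 and 1.68, below LP2 in both HP libraries. At Tfe3 the values were 0.977, 1.22 and 1.26.

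The other lists differed in how many genes had a member. The share over all protein-coding genes was 17.2%. Of 20 proliferation genes 2 (10.0%) had a member, Cdk2 and Ccnb1, while all 20 had a region called in all 4 lists, against the 48.8% of all genes. One of the Cdk2 members is the Pmel one, since the genes are neighbours. The median length of the proliferation genes was 12 kb. Of 10 AP-1 genes 2 (20%) had a member and all 10 a region called in all 4 lists. Of 12 genes of dedifferentiation and invasion 7 (58.3%) had a member, among them Tead1 with 4 and Axl, a receptor tyrosine kinase, with 3. Of 12 lysosome genes 5 (41.7%) did. With 50 kb on either side of the gene the shares were 75% for pigmentation, for dedifferentiation and invasion and for lysosome, 70.0% for AP-1, 60.0% for the transcription factors, 40.0% for proliferation and 40.7% for all genes. In the windows of gene body and 3 kb flanks, a region called in HP alone stood at 58.3% of the dedifferentiation and invasion genes. It stood at 50% of the lysosome, 20% of the AP-1 and 15% of the proliferation genes, against 15.9% of all genes. A region called in all 4 lists stood at 66.7% of the dedifferentiation and invasion and 91.7% of the lysosome genes, against 48.8% of all genes. Median gene length was 79.9 kb for dedifferentiation and invasion, 22.7 kb for lysosome and 7.88 kb for AP-1, against 17.3 kb for all genes. Genes of these lists thus differ in length, and no test was made of these shares.

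Of all protein-coding genes, 3793 had a member in the body or 3 kb flanks, and 2811 of them had 1. The genes with the most members, named after their counts were seen, were long: the readthrough gene Gm20388 with 49 over 4435 kb, Fgfr2 with 21 in an annotated span of 2961 kb, Dst with 13 and Msi2 with 12. Mitf and Sox5, with 8 each, were among the 19 genes with at least 8.

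By mean percentile of the −log10 q-value, the leading members with LP2 were all promoters. Fam168a had 4.69 in LP2, 8.01 in HP1 and 9.54 in HP2. Spag5, a protein of the mitotic spindle, had 2.74, 4.44 and 9.68. Cyp26b1, an enzyme that degrades retinoic acid, had 3.39, 5.57 and 10.2, and Saal1 and Kptn had HP2 values of 10.2 and 10.4. In all 5 the pileup was lowest in LP2 and highest in HP2.

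Among the leading members with LP1 a pair were repeats. The regions at Gm10722 and Gm10717, near the start of the chromosome 9 assembly, had summit windows of 93.0% and 98.0% repeat and pileups of 1673 and 298 FPM in LP1. HP1 and HP2 were lower there, at 1372 and 1284 and at 239 and 172, and the authors' fold enrichment over the control was 1.14 to 2.39 and 1.43 to 1.90. The other leading ones were a region near Gm6020 with 12.9 in LP1, 12.6 in HP1 and 37.0 in HP2, and the promoters of Commd4 and Ensa. Commd4 had 1.57, 3.48 and 4.56, and Ensa, an inhibitor of the phosphatase PP2A in mitosis, had 3.05, 3.22 and 7.65. In all, 13 members had a fold enrichment under 3 in all 3 libraries.

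The highest log2 ratios among members with at least 10 fragments in each of the 3 libraries all had LP2 as their LP list. This minimum left out most members with LP1, whose median LP pileup was 9 fragments, against 14 with LP2. Without it the median log2 ratio was 0.82 with LP1 and 0.70 with LP2. The region nearest Rhou, a small GTPase, had 0.651 in LP2, 2.53 in HP1 and 4.84 in HP2, a log2 ratio of 2.50. Mical3, an enzyme that acts on actin filaments, had 0.716, 2.18 and 5.75. At the promoter of Asl, a urea cycle enzyme, the values were 1.04, 2.87 and 8.49. Ubap1, a part of the ESCRT-I complex, had 0.651, 1.31 and 5.40 in a window of 98.0% repeat, and Mylk, the myosin light chain kinase, had 0.782, 3.40 and 4.42. Both HP libraries were above LP2 in these 5, and HP2 exceeded HP1 in each.

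Under the same minimum, the members described from the low end of the ratios also had LP2 as their LP list. Both HP libraries were below it. Car8, related to carbonic anhydrases, had 3.52 in LP2, 1.83 in HP1 and 1.82 in HP2 at its promoter, a log2 ratio of −0.95. Prph, the intermediate filament protein peripherin, had 2.15, 1.04 and 1.19. Poc1a, a centriole protein, had 2.34, 1.31 and 1.19, and Wdr25 had 2.02, 1.31 and 0.912. The windows of these 4 had a GC content of 59.5% to 72.0%, and none of them had a peak in LP1, so the direction rests on the LP2 library.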

How the data were processed

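H3K27ac ChIP-seq of LP and HP cells (2 replicates each) was analysed from the authors' peak lists. Fixation lasted 10 minutes in 1% formaldehyde per the labels, and the paper's methods give another strength. The authors trimmed reads (Trimmomatic 0.33), aligned them to mm10 (Bowtie2 2.5.1) and, for each library on its own, called narrow peaks (MACS 3.0.0b1) against the IgG library of the same number, at a q-value of 0.05. The deposited pileup is a signal in fragments, not scaled for depth. The authors' fold enrichment is a ratio of pileup to local background, and the deposited −log10 p-value and q-value are those of the summit. Fold enrichment and −log10 q were used only within a list.

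The lists were merged at an overlap of 1 bp. A library's pileup in a region was its highest summit, divided by its total fragments times 1000000, and its width the length its peaks cover. GENCODE vM21 and the mm10 reference (RefSeq) gave positions and sequence. Members are named by the nearest protein-coding TSS, except that a member in the body or 3 kb flank of a list gene bears the name of that gene. Named were all members at genes of the pigmentation and transcription factor lists, the 5 leading by mean percentile of −log10 q for each LP list, and the 5 highest and lowest ratios with at least 10 fragments in every library. Of the lowest ratios 1 is not reported here. Members and lists were chosen with earlier results of these data known. An exact permutation test of 2 against 2 libraries cannot reach 0.05, and none was made. Merging and overlap were tested on simulated data. Alternatives were stricter q-values, equal lists, other overlaps and windows, other scaling and leaving out each library. Reads were not used here. The scripts ran on Python 3.11.15 with pysam 0.24.0, pandas 2.3.3, numpy 2.4.6, matplotlib 3.10.9 and scipy 1.17.1.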

Additional observations from a re-analysis of the deposited data

How the results depend on the processing

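The count of 6625 regions was 6326 and 5691 at q-values of at most 0.01 and 0.001, 6191 with lists of equal size, 6728 with peaks up to 100 bp apart merged and 6616 on chromosomes 1 to 19, X and Y. It moved to 4405 with an overlap of 50% of both peaks, and to between 9400 and 17489 when 1 library was left out, since the rule then has fewer lists to satisfy. The median log2 pileup ratio of 0.71 turned to −0.26 when libraries were centred on their medians over regions called in all 4 lists. Leaving out a library gave 0.50 to 0.87 for pileup and 0.28 to 1.14 for width, whose median was 0.59. With the replicate block, that is the HP library of the same number only, the medians were 0.78 and 0.70. The pairing is by the shared IgG library, and no test was made with it.

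The promoter share of 44.6% was 33.4% within 1 kb, 30.6% with protein-coding transcripts, 46.1% at a q-value of at most 0.01 and 39.6% to 45.8% without 1 LP list. Median GC was 50.8% over the whole region and 52.5% to 56.0% without 1 LP list. Within 3 kb of a TSS the share of genes with a member was 35.0% for pigmentation, 41.7% for dedifferentiation and invasion, 33.3% for the transcription factors, 5.00% for proliferation, 10.0% for AP-1, 16.7% for lysosome and 9.37% for all genes. With 50 kb of flank it was 75% for pigmentation and for dedifferentiation and invasion, 60.0% for the transcription factors, 40.0% for proliferation, 70.0% for AP-1, 75% for lysosome and 40.7% for all genes. With at least 10 fragments in every library the median log2 pileup ratio was 0.72.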
